A study of Mus musculus with 10 samples.

Results

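Ly6c2 Plac8 monocytes were described in 5 single-cell RNA libraries of immune cells sorted from SW1 melanoma tumors. The cells were selected on measured transcripts, counted as unique molecular identifiers (UMIs, each a captured RNA molecule). A cell needed 500 or more detected genes, no more than 10% of its UMIs from mitochondrial (mt-) genes, 2 or more UMIs of Ly6c2, 1 or more of Plac8 and 2 or more of Lyz2. It could carry no more than 2 UMIs of C1qa, C1qb and C1qc combined and had to be at 0 for Cd3d, Cd3e, Cd3g, Nkg7, Siglech, Xcr1, Clec9a and Cd209a. This left 92 cells of 41936 deposited barcodes, or of 31156 cells that passed the limits on genes and mitochondrial UMIs. The pretreatment library held 19 of them, control day 7 held 29, L-fuc day 7 held 40, and control day 21 and L-fuc day 21 held 2 each.

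The study asked how L-fucose (L-fuc), a sugar given in drinking water, acts on immune cells in tumors. SW1, a mouse melanoma line, was grown under the skin of female C3H/HeJ mice that were 4 to 6 weeks old, for 10 days by the sample labels. The paper's methods give a longer time before the pretreatment cohort was taken. Tumors of a pretreatment cohort (3 mice, day 0) and of mice on control or L-fuc water for 7 or 21 days were pooled within each condition, sorted for CD45+ cells and made into 1 gene expression library per condition. The labels give the L-fuc water as 100 mM in the treatment protocol and 100 nM in the extract protocol, and 5 and 6 mice per arm, respectively, in the same places. All groups shared the strain, the sex and the tumor line, and the paper's methods name no transgene or deletion in these mice. Since each condition was 1 pooled library, differences between conditions had no replicate check and were not tested; intervals below cover counting error only.

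Classical monocytes leave the bone marrow through the chemokine receptor Ccr2 and circulate with Ly6C on their surface. In inflamed tissue and in tumors they can become macrophages or dendritic cells, a change in which Ly6C is lost while class II molecules and complement C1q are gained. They are strong responders to interferons and to microbial or danger signals, and tumor monocytes are known both as sources of inflammatory cytokines and as suppressors of T cells.

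Depth differed between the libraries. The libraries held 14439185 UMIs at pretreatment, 119047810 at control day 7, 88986101 at L-fuc day 7, 21727157 at control day 21 and 16589803 at L-fuc day 21. The monocytes themselves summed to 147127, 176700, 304309, 21371 and 15287 UMIs in the same order. Their median depth was 7499 UMIs per cell at pretreatment, 4439 at control day 7 and 6340.5 at L-fuc day 7, so the control day 7 cells were the shallowest. Median detected genes were 1837, 1557 and 1916.5 per cell, and the median mitochondrial share was 0.181%, 1.26% and 1.45%, lowest before treatment.

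The genes used for selection are given as a description. Ly6c2 encodes the Ly6C antigen of inflammatory monocytes, and it summed to 1081 UMIs per 1000000 monocyte UMIs (CPM) at pretreatment, 1070 at control day 7, 1968 at L-fuc day 7, 2761 at control day 21 and 654 at L-fuc day 21. Plac8, a gene of myeloid and plasmacytoid cells, stood at 1856, 1460, 2205, 2106 and 850 CPM. Lyz2, the lysozyme of monocytes, macrophages and granulocytes, stood at 5879, 6910, 13302, 28075 and 2420 CPM. At the limits themselves, 7 of the 92 cells had exactly 2 Ly6c2 UMIs, against 14 cells that met every other condition with 1. Plac8 was at exactly 1 UMI in 1 monocyte and at 0 in 7 otherwise qualifying cells, and Lyz2 was at exactly 2 in 3 monocytes and at 0 or 1 in 73 otherwise qualifying cells. C1q was at 0 in 58 monocytes and at 1 or 2 in 34, while 9 cells were held out with 3 or 4 and 40 with 5 or more.

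Genes outside the rule were compared with the label. F13a1 (coagulation factor XIII A, a classical monocyte gene) had a UMI in 57.6% of the 92 monocytes and in 1.45% of 2202 T cells from the same libraries, which should lack it and were held to the same limit of 2 C1q UMIs. Hp (haptoglobin) had a UMI in 43.5% and 0.636%, and Ccr2 in 60.9% and 19.2%. Thinned to 2000 UMIs per cell, with shallower cells left out, the shares were 39.8% and 0.723% for F13a1 and 27.3% and 0.334% for Hp, while Ccr2 was in 36.4% of monocytes and in 198 of 1799 T cells. For all 3 genes the share was higher in monocytes, before and after thinning. H2-Aa (class II) was in 57.6% of monocytes but also in 47.8% of T cells, and after thinning in 38.6% and 33.7%, so its share of cells was close to that background. Productive T or B cell receptor contigs were found in 0 of 92 monocytes (exact Clopper-Pearson 95% upper limit 3.93%) and in 1287 of 2202 T cells. The labels name the material as lymphocytes, and Ptprc, the gene of the sorted CD45 antigen, had a UMI in 15 of 19, 18 of 29, 31 of 40, 2 of 2 and 2 of 2 monocytes.

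Markers of other cell types were then counted over the monocytes of each library. Genes of SW1 tumor cells summed to 6 UMIs at pretreatment, 562 at control day 7 and 581 at L-fuc day 7, or 40.8, 3181 and 1909 CPM. They were not spread evenly, since 4 cells held 402 of the 562 and 4 held 549 of the 581. Fibroblast genes summed to 0, 410 and 18 UMIs, and 387 of the 410 were in 1 control day 7 cell of 22119 UMIs that also held 158 UMIs of Sparc, 139 of Col3a1 and 117 of Col1a1. Hemoglobin and other red cell genes summed to 0, 21 and 938 UMIs. They were seen in all 40 L-fuc day 7 monocytes, and 2 of these cells held 795 of the 938 UMIs. Neutrophil genes summed to 16, 6, 19 and 3 UMIs in the first 4 libraries and to 1616 at L-fuc day 21, where 1 of the 2 cells held 1613 of them. In that cell S100a9 had 664 UMIs, S100a8 492, Retnlg 389 and Ly6g 5, which goes against the monocyte label. Elane, Mpo, Ctsg, Ms4a3 and Kit, which define marrow progenitors, were at 0 in every monocyte, while Prtn3 had 1 UMI and Cd34 had 5 UMIs in 1 cell. The collagen-rich control cell and the neutrophil-gene cell are called doubtful below, and results that rest on them are given without them. A wider limit, chosen after the data were seen, left out members with more than 0.3% of their UMIs from tumor, fibroblast, neutrophil and red cell genes together, which were 8 at control day 7, 5 at L-fuc day 7 and 1 at L-fuc day 21.

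The day 7 libraries shared 433 barcodes with each other, and no monocyte barcode was a monocyte in more than 1 library. As an alternative, the cells with the highest doublet scores (Scrublet) were left out at a preset rate of 0.08% per 1000 cells. This took 2 cells at pretreatment, 256 at control day 7, 65 at L-fuc day 7, 2 at control day 21 and 1 at L-fuc day 21. Of the 92 monocytes 1 was among them, from L-fuc day 7. The number left out was set in advance, so it does not measure how many monocytes are doublets.

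The abundance of the monocytes was highest before treatment. They made up 1.29% of filtered cells at pretreatment (exact binomial 95% interval 0.780 to 2.01), 0.162% at control day 7 (0.109 to 0.233) and 0.443% at L-fuc day 7 (0.317 to 0.602). At day 21 the shares were 0.127% in control (0.0154 to 0.459) and 0.169% with L-fuc (0.0205 to 0.610), from 2 cells each. The intervals of the 3 earlier libraries did not overlap each other, whereas the day 21 intervals overlapped each other. The L-fuc share at day 7 was 2.73 times the control share (95% interval 1.65 to 4.57). Thinned to 3000 UMIs per cell this ratio was 4.50 (2.48 to 8.50), from 38 of 6080 and 17 of 12240 cells. At day 21 the ratio was 1.33 with an interval of 0.0965 to 18.4, which left no detectable difference at this depth. Without the doubtful cell at day 21 the ratio was 0.665 (0.0113 to 12.8), from 1 of 1182 and 2 of 1573 cells, so even its direction rested on 1 cell. Without members over 0.3% the day 7 ratio was 3.30 (1.87 to 5.97), from 35 and 21 cells.

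The denominator mattered, because many filtered cells had no transcript of Ptprc: cells with a Ptprc UMI were 788 of 1470 at pretreatment, 4940 of 17897 at control day 7 and 3962 of 9034 at L-fuc day 7. Counted among cells with a Ptprc UMI on both sides, the monocyte share was 1.90%, 0.364% and 0.782% in these libraries, and the day 7 ratio was 2.15 (1.16 to 4.08). Among cells with 2 or more Lyz2 UMIs, a myeloid denominator, the monocytes made up 4.04%, 1.28% and 2.93%, and the day 7 ratio was 2.29 (1.39 to 3.84). On this denominator control day 7 stood at 0.315 times pretreatment (0.171 to 0.595), whereas L-fuc day 7 stood at 0.724 times pretreatment (0.410 to 1.32), an interval that includes equality. Among all filtered cells L-fuc day 7 stood at 0.343 times pretreatment (0.194 to 0.626). Among Ptprc cells it stood at 0.411 times (0.215 to 0.819), and both intervals lie below equality. From day 7 to day 21 the myeloid share with L-fuc went to 0.135 times its day 7 value (0.0158 to 0.521). This rested on 2 cells, of which 1 is doubtful. With both cells kept, the L-fuc share went to 0.382 times (0.0447 to 1.47) among all filtered cells. Counted among Ptprc cells it went to 0.527 times (0.0611 to 2.07), and both of these intervals include equality. The control myeloid share went to 0.3004 times its day 7 value (0.0347 to 1.19), an interval that also includes equality. Without the doubtful cell the myeloid share with L-fuc went to 0.0675 times its day 7 value (0.00167 to 0.399). Among all filtered cells this became 0.191 times (0.00472 to 1.13), an interval that includes equality.

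C1q UMIs in T cell barcodes differed between libraries. T cells, which do not make C1q, had a C1q UMI in 29.8% of 477 cells at pretreatment, 84.1% of 1497 at control day 7 and 66.5% of 1820 at L-fuc day 7, counted without a C1q limit. More than 2 C1q UMIs, which would bar a monocyte, were in 21.8%, 49.6% and 45.5% of those T cells. Among the monocytes 3 of 19, 20 of 29 and 11 of 40 had a C1q UMI. With C1q held at 0 the day 7 ratio of shares was 6.38 (2.94 to 15.3). The source of C1q UMIs in T cell barcodes and their part in the difference of shares were not tested.

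**Figure D1:**
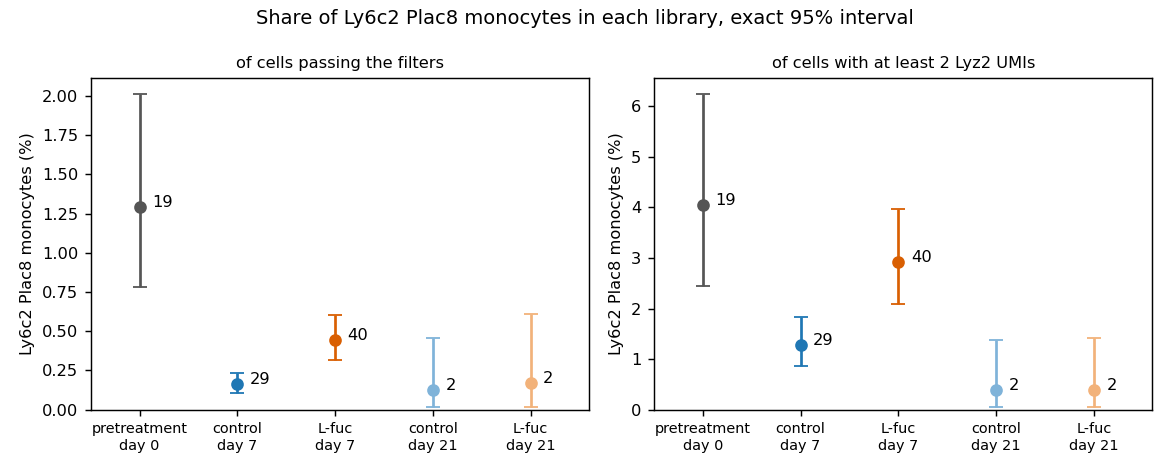
Share of Ly6c2 Plac8 monocytes among all filtered cells and among cells with 2 or more Lyz2 UMIs (percent, vertical axes) in the 5 libraries (horizontal axis). Points are shares with exact binomial 95% intervals and the numbers beside them are monocyte counts; pretreatment is highest on both axes, L-fuc day 7 lies above control day 7, and each day 21 point rests on 2 cells.

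The monocytes were next compared with C1q macrophages, the most numerous myeloid neighbours, defined as cells with 2 or more Lyz2 UMIs, 10 or more C1q UMIs and the same exclusions (284 at pretreatment, 671 at control day 7, 610 at L-fuc day 7). UMIs were summed per class in these 3 libraries, and the 6 sums were fitted with edgeR's quasi-likelihood test with library as a block, Benjamini-Hochberg adjusted over 10173 genes. At adjusted p below 0.05, 342 genes (3.36% of those tested) were higher in monocytes and 356 (3.5%) lower. Of these, 120 were called in every alternative fit that tested them. Here and below, a fit in which a gene was filtered out or had no adjusted p does not count for that gene. The fit on cells thinned to 2000 UMIs tested 4196 genes. The genes that define either class (the rule genes) were left out of this fit. The other genes come from the same cells as the rule genes, so their differences describe how far the 2 gates separate cells. The residual degrees of freedom were 2, and edgeR set the prior degrees of freedom, the weight of a spread pooled over genes, to infinity. The p-values and SEs therefore rest on that pooled spread, and an SE does not measure a gene's own spread between the 3 libraries. The highest adjusted p over the alternative fits is given for the genes with full statistics.

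Classical monocyte genes were the group furthest above the macrophages. Of 28 listed genes, all tested, 21 were higher, 0 were lower and 7 did not pass, with a median log2 difference of 2.62 beside -0.12 over all genes. Ccr2, the receptor that draws monocytes to Ccl2, was at 245 CPM at pretreatment, 164 at control day 7 and 289 at L-fuc day 7, against 29.3, 22.9 and 43.9 CPM in macrophages. The classes did not overlap, and the log2 difference was 2.77 ± 0.33 (SE, 3 libraries; edgeR adjusted p = 1.5e-14, up to 0.011 over the alternative fits). S100a4, a calcium-binding protein of motile cells, was at 782, 985 and 1311 CPM against 104, 54.3 and 45.9 (3.90 ± 0.31; edgeR adjusted p = 1.4e-33, up to 0.005). Hp was at 27.2, 141 and 260 CPM against 1.79, 1.996 and 4.95 (5.43 ± 0.45; edgeR adjusted p = 1.5e-30, up to 0.0075). Hp was lowest before treatment, yet its lowest monocyte value was above every macrophage value. Ifitm6, of the interferon-induced transmembrane family, was higher by 6.04, Vcan (the matrix proteoglycan versican) by 4.55 and F13a1 by 3.03 on the log2 scale. F13a1 lost its call in some fits (edgeR adjusted p = 6.1e-16, up to 0.13), and Chil3 (Ym1) drew 76 of its 85 pretreatment UMIs from 1 cell, beside 10 UMIs at control day 7 and 16 at L-fuc day 7, and lost its call as well (highest edgeR adjusted p 0.755). Ly6c1 was higher by 6.01, but it is nearly identical in sequence to the rule gene Ly6c2, so reads may be split between them. Itgam (CD11b, log2 difference 0.13 ± 0.33), Cd14 (0.35 ± 0.26) and Cybb (0.10), which both classes use, did not pass the test.

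**Figure D2:**
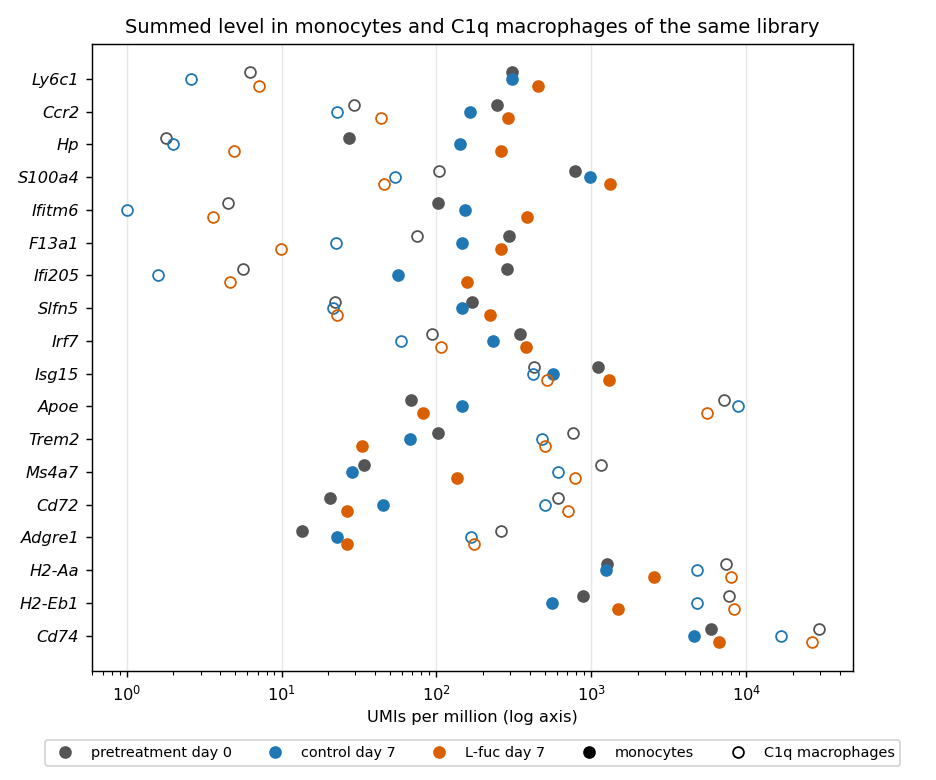
Level of 18 genes (CPM, logarithmic horizontal axis) in monocytes (filled) and C1q macrophages (open) of the pretreatment, control day 7 and L-fuc day 7 libraries, each point 1 library. Ly6c1, Ccr2, Hp, S100a4, Ifitm6, F13a1, Ifi205 and Slfn5 are higher in monocytes in all 3 libraries, while Apoe, Trem2, Ms4a7, Cd72, Adgre1, H2-Aa, H2-Eb1 and Cd74 are lower.

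Macrophage genes stood on the other side: 13 of 24 tested were lower in monocytes, 0 were higher and 11 did not pass (median -1.34). Apoe, the lipid carrier of tissue macrophages, was at 68.0, 147 and 82.2 CPM in monocytes and at 7193, 8855 and 5556 CPM in macrophages. This difference of -6.29 ± 0.31 on the log2 scale (3 libraries; edgeR adjusted p = 2.4e-84, up to 0.00052) was the strongest by p-value. Trem2, a lipid-sensing receptor, was lower by 3.29 ± 0.34, Ms4a7 by 3.83 and Adgre1 (F4/80) by 3.25. Ccl8, a monocyte-attracting chemokine, was at 27.2, 153 and 0 CPM against 4698, 1252 and 1706 CPM, and its highest edgeR adjusted p over the fits was 0.0519. Some genes had no monocyte UMI at all in these 3 libraries. Against a floor of 3 UMIs over the group, Fcrls was at least 36.3-fold lower and H2-M2 at least 46.0-fold lower.

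Class II antigen presentation was lower, with 6 of 11 tested genes lower, 0 higher and a median of -0.95. H2-Eb1 was at 884, 560 and 1482 CPM in monocytes and at 7704, 4814 and 8283 CPM in macrophages (-2.99 ± 0.26; edgeR adjusted p = 6.1e-28, up to 0.016). H2-Aa was lower by 2.15 and Cd74, the invariant chain, by 2.16. Both classes were lowest in the control day 7 library for H2-Eb1, and the monocyte level stayed below the macrophage level in each. In class I presentation 2 of 19 tested genes were lower, H2-K1 among them (-1.17 ± 0.25; edgeR adjusted p = 0.00017, up to 0.21), and 17 did not pass (median -0.39).

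Cell cycle genes were lower in monocytes for 8 of 12 tested, with none above 0 (median -1.94). Mki67, the proliferation antigen, was at 0, 22.6 and 9.86 CPM against 58.0, 103 and 87.3 CPM (-3.06 ± 0.52; edgeR adjusted p = 3.1e-07, up to 0.034), and Top2a was lower by 2.31 ± 0.49 (edgeR adjusted p = 9.2e-05, up to 0.24). Of 12 tested genes of patrolling monocytes, the Ly6C-low kind that crawls along vessels, the receptor Cx3cr1 (-2.81 ± 0.38) and the sialophorin Spn (-2.98 ± 0.71) were lower, and Spn lost its call in at least 1 fit (highest edgeR adjusted p 0.311). Nr4a1, the transcription factor those cells need, was higher (0.95 ± 0.28; edgeR adjusted p = 0.015, up to 0.87), and Fabp4 was higher by 3.63, with 49 of its 54 UMIs in 1 pretreatment cell (highest edgeR adjusted p 0.458).

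Type I interferon response genes were higher in monocytes for 14 of 21 tested, lower for 0, and all 21 had a log2 difference above 0 (median 1.48). Ifi205, an interferon-induced DNA-binding protein, was at 285 CPM at pretreatment, 56.6 at control day 7 and 158 at L-fuc day 7, and at 5.68, 1.60 and 4.62 CPM in macrophages (5.19 ± 0.41; edgeR adjusted p = 6.9e-33, up to 0.011). Slfn5, a member of the Schlafen family, was at 170, 147 and 220 CPM against 22.1, 21.6 and 22.95 (2.91 ± 0.34; edgeR adjusted p = 7.9e-15, up to 0.0037). Slfn5 varied little within either class. Irf7, the factor that amplifies interferon production, was higher by 1.80 ± 0.31 (edgeR adjusted p = 3.1e-07, up to 0.058), and the antiviral enzyme gene Rsad2 by 1.59 ± 0.31 (1e-05, up to 0.11). Isg15, the ubiquitin-like interferon product, was at 1101, 566 and 1308 CPM against 425, 418 and 514 (0.97 ± 0.27; edgeR adjusted p = 0.0071, up to 0.53). Of the 14 called genes, 4 kept their call in every fit (Ifi205, Slfn5, Ifi204 and Rtp4). In the interferon gamma list 6 of 16 were higher and 0 lower (median 0.79), among them the guanylate-binding protein Gbp2 (1.29 ± 0.32) and the transcription factor Irf1 (1.22 ± 0.30), and none of the 6 kept its call in every fit.

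Promoters of several of these genes hold the letters of an element that interferon signalling is known to use. The windows are from RefSeq on GRCm38.p6, a reference that is not the C3H/HeJ genome, and capitals mark matches to GAAA, any 2 bases, GAAA (on either strand), the letters of an interferon-stimulated response element. Each stretch is written on the strand of its gene, 5′ to 3′, and is shown because its gene was higher in monocytes. The Isg15 stretch is chr4:156200845-156200926 (minus strand, 3 overlapping matches, the first starting 78 bases before the gene start). The Ifi205 stretch is chr1:174031850-174031919 (minus strand), that of Slfn5 is chr11:82951917-82951986 (plus strand) and that of Rsad2 is chr12:26456533-26456602 (minus strand).
Isg15: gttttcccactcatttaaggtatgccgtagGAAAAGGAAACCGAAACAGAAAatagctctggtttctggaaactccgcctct
Ifi205: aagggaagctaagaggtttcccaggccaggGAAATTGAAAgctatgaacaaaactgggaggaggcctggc
Slfn5: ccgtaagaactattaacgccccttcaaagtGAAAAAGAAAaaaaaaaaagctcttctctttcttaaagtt
Rsad2: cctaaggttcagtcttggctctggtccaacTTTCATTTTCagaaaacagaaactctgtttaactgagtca

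Of 23 listed type I interferon genes 17 had a promoter sequence, and 9 of them (52.9%) held this pattern within 250 bases before the gene start, against 821 of all 27025 promoters (3.04%). A match is a description of letters and not evidence of binding in these cells.

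Inflammatory cytokine and chemokine genes were mixed, with 9 of 20 tested higher in monocytes and 1 lower (median 0.79). Osm (oncostatin M) was at 1346, 385 and 674 CPM against 134, 69.5 and 110 in macrophages (2.71 ± 0.29; edgeR adjusted p = 8.4e-18, up to 0.043). Ccl2, the ligand of Ccr2, was higher by 2.11 ± 0.26, Il1rn, the interleukin-1 receptor antagonist, by 1.85 ± 0.27, and the neutrophil chemokine Cxcl2 by 1.52 ± 0.25, and these 3 lost the call in at least 1 fit (highest edgeR adjusted p 0.13, 0.15 and 0.21). The lower gene was Il12b, a subunit of interleukin-12, with 0 monocyte UMIs and a level at least 4.40-fold lower against the floor of 3 UMIs (edgeR adjusted p = 0.00061, up to 0.31). Il1b did not pass (-0.15 ± 0.25; edgeR adjusted p = 0.9). In migration and adhesion 6 of 14 genes were higher and 1 lower (median 0.64), with Cd44, a hyaluronan receptor, higher by 1.98 ± 0.31, the chemokine receptor Ccr1 higher by 1.65 ± 0.33 and Cx3cr1, named above, lower. Cd44 and Ccr1 lost their call in at least 1 fit (highest edgeR adjusted p 0.0642 and 0.196). In glycolysis and hypoxia 0 of 18 were higher and 1 (Adm, adrenomedullin, highest edgeR adjusted p 0.593) was lower. In immunosuppressive myeloid genes 4 of 14 were higher and 1 lower, and 0 of them kept the call in every fit. Genes that add, carry or remove fucose gave 1 lower (Fuca2, a fucosidase, -1.82 ± 0.47; edgeR adjusted p = 0.0029, up to 0.37) of 16 tested.

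Markers of other cells also entered this comparison. Of 6 fibroblast genes 4 were higher in monocytes, and almost all of their UMIs came from the doubtful control cell. The B cell genes Igkc and Ighm were lower, and macrophages held 163 and 257 CPM of them at L-fuc day 7. Mmp8, a neutrophil collagenase, was the 1 called gene of 4 tested neutrophil genes. Igkc, Ighm and Mmp8 lost their call in at least 1 fit (highest edgeR adjusted p 0.998, 0.367 and 0.139). Their part in the result was not tested. Without the doubtful members 754 genes were called in place of 698, and without members over 0.3% 820.

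**Figure D3:**
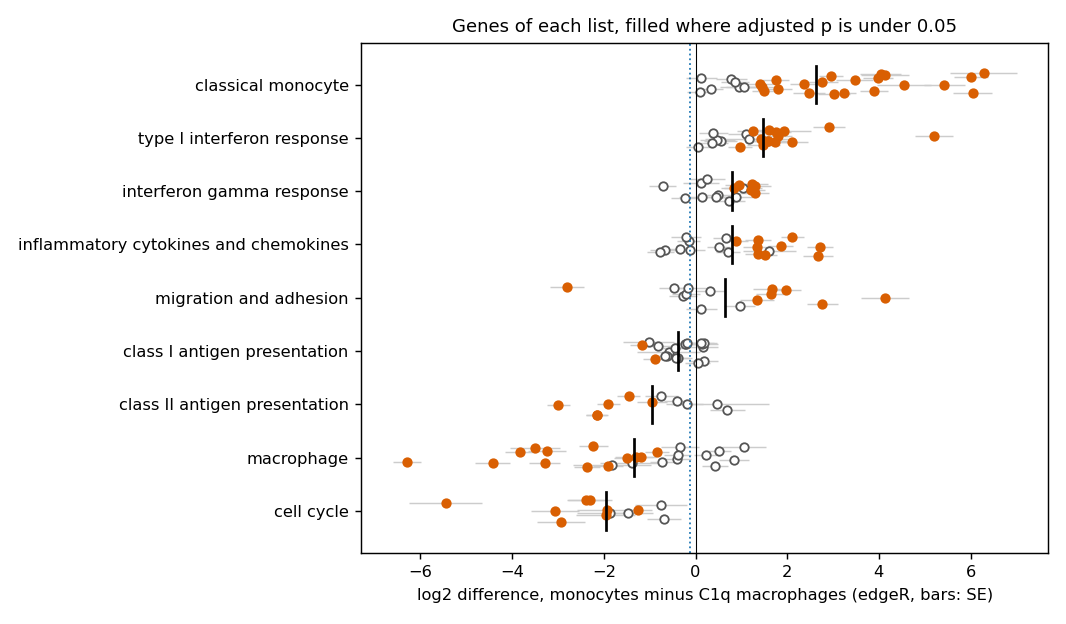
Log2 difference between monocytes and C1q macrophages from edgeR (horizontal axis) for the genes of 9 lists (vertical axis). Each point is a gene with its SE, filled where the adjusted p was below 0.05. Il12b, the 1 inflammatory gene called lower in monocytes, is not drawn, though it enters the median of its list. Black bars are list medians and the dotted line is the median of all 10173 genes (-0.12). Classical monocyte (2.62) and type I interferon (1.48) medians lie above it, and macrophage (-1.34), class II (-0.95) and cell cycle (-1.94) medians lie below it.

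A second comparison was with cells that carried Cd209a, the lectin gene of a monocyte-derived or conventional dendritic cell, in the day 7 libraries (29 control and 10 L-fuc cells). This fit had 4 sums, 1 residual degree of freedom and again only the spread pooled over genes. By edgeR 165 of 3091 genes were called higher in monocytes (5.34%) and 52 lower (1.68%). Inflammatory genes were higher for 13 of 15 tested and classical monocyte genes for 17 of 25. Ccl2 was higher by 4.09, Il1rn by 4.13, Ccl7 by 5.63 and Il1b by 3.04 on the log2 scale. Genes lower in monocytes included the proliferation genes Mki67 (-3.09) and Top2a (-3.05) together with the adhesion genes Mcam (-2.67) and Ncam1 (-2.21) and the collagen gene Col9a1 (-2.59), which are not dendritic cell genes. Of the 29 control cells with Cd209a, 9 had a Ptprc UMI and 7 had 2 or more Lyz2 UMIs, so that this class was itself mixed. In the L-fuc library alone the inflammatory genes were mixed. CPM in this comparison are over totals without the rule genes and are not TMM-scaled. Ccl4 was at 1365 CPM in monocytes and 3916 in the 10 cells with Cd209a. Ccl3 was at 535 and 1227 and Osm at 686 and 804, all lower in monocytes, and Cxcl2 was at 3355 and 2820 CPM. Among genes that were higher in monocytes there, Ccl7 was at 632 and 14.6 CPM, Tnf at 345 and 73.1, Ccl2 at 1883 and 453 and Il1b at 1134 and 380 CPM. No gene kept its call in every fit: without the doubtful control cell 0 genes were called by edgeR, with 368 at an unadjusted p below 0.05, and DESeq2 called 18.

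Most of the listed inflammatory genes of the monocytes were lower at control day 7 than before treatment. Levels were compared as UMI sums with 1 UMI added per sum, over 1398 genes with 30 or more UMIs in the 2 libraries together, and a gene was called when it was 2-fold or more apart. This gave 228 genes higher at control day 7 (16.3%) and 279 lower (20%), around an all-gene median of 0.03 on the log2 scale. Of 18 tested inflammatory genes 14 were lower by 2-fold or more, 0 were higher and 1 had a ratio above 0. Their median was -2.01, against -0.81 for the same list in macrophages of the same libraries, where the median of all genes was 0.29. Without members over 0.3% it was -1.53, with 13 of 18 lower and 1 higher.

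Cxcl2 was at 18141 CPM at pretreatment (Poisson 95% interval 17459 to 18842), 2818 at control day 7 (2576 to 3077) and 3296 at L-fuc day 7 (3095 to 3506), a log2 ratio of -2.68 for control day 7 over pretreatment. It was seen in 16 of 19, 12 of 29 and 14 of 40 monocytes, so fewer cells carried it at day 7 as well. At control day 7 2 cells held 298 of its 498 UMIs and at L-fuc day 7 2 cells held 701 of 1003. Without the 2 richest cells of each library Cxcl2 was at 14015, 1274 and 1062 CPM, which leaves pretreatment highest and turns the order of the day 7 libraries. In macrophages of the same libraries Cxcl2 was at 2246, 1529 and 1619 CPM. Nfkbia, the inhibitor that NF-kB induces on itself, was at 7973, 1432 and 1558 CPM (-2.47), against 1564, 1165 and 1239 in macrophages. Both day 7 libraries lay within the macrophage range for Nfkbia, while pretreatment was far above it. Ptgs2 (cyclooxygenase 2) was at 2610, 119 and 664 CPM (-4.39), Ccl7 at 3806, 260 and 621 (-3.84, with 244 of 560 pretreatment UMIs in 1 cell) and Il1b at 3806, 821 and 1114 (-2.21). Il6 had 26 UMIs in 6 pretreatment cells and 0 in both day 7 libraries.

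Some other groups were lower at control day 7 as well, where 20% of all tested genes were lower by 2-fold or more. In immunosuppressive myeloid genes 8 of 9 were lower and 0 higher (median -1.93, macrophages -0.14). In migration and adhesion 6 of 8 were lower (median -1.64, macrophages -0.29), with the chemokine receptor Cxcr4 at 367, 39.6 and 230 CPM in the pretreatment, control day 7 and L-fuc day 7 libraries (-3.05) and Itgam lower by 2.39. Classical monocyte genes were less moved, with 6 of 21 lower, 1 higher and a median of -0.50, which became 0.21 after thinning to 2000 UMIs per cell and 0.00338 without members over 0.3%. Cd14, the co-receptor for lipopolysaccharide, was among the lower ones, at 3106, 674 and 956 CPM (-2.20). Type I interferon genes had 5 of 14 lower, 0 higher and a median of -0.57. Class II genes had 1 of 8 lower, a share below the 20% over all genes. Their median was -0.21, and 0.17 without members over 0.3%. The genes furthest up at control day 7 were tumor and fibroblast genes led by Sparc (8.07), and the SW1 tumor list had a median of 6.63 here and 3.94 in macrophages, so that tumor transcripts moved with the time point in both cell types. Its part in the lower groups was not tested.

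NF-kB is the factor classically tied to Cxcl2 and Nfkbia. Capitals here mark matches to GGG, any 2 bases, TTTCC (on either strand), in the same RefSeq windows on GRCm38.p6, written on the strand of the gene. The Cxcl2 stretch is chr5:90903772-90903860 (plus strand, 2 matches, the first starting 97 bases before the gene start), and the Nfkbia stretch is chr12:55492648-55492706 (minus strand, 1 match, 29 bases before the start).
Cxcl2: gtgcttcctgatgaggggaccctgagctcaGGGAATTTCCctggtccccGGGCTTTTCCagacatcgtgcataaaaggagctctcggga
Nfkbia: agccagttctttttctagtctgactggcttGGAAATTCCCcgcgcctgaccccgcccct

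Of 21 listed inflammatory genes 15 had a promoter sequence and 5 of them (33.3%) held this NF-kB pattern, namely Ccl9, Cxcl1, Cxcl2, Il6 and Nfkbia, against 378 of 27025 promoters (1.40%). None of the 15 held the interferon pattern, and none of the 17 type I interferon promoters held the NF-kB pattern.

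**Figure D4:**
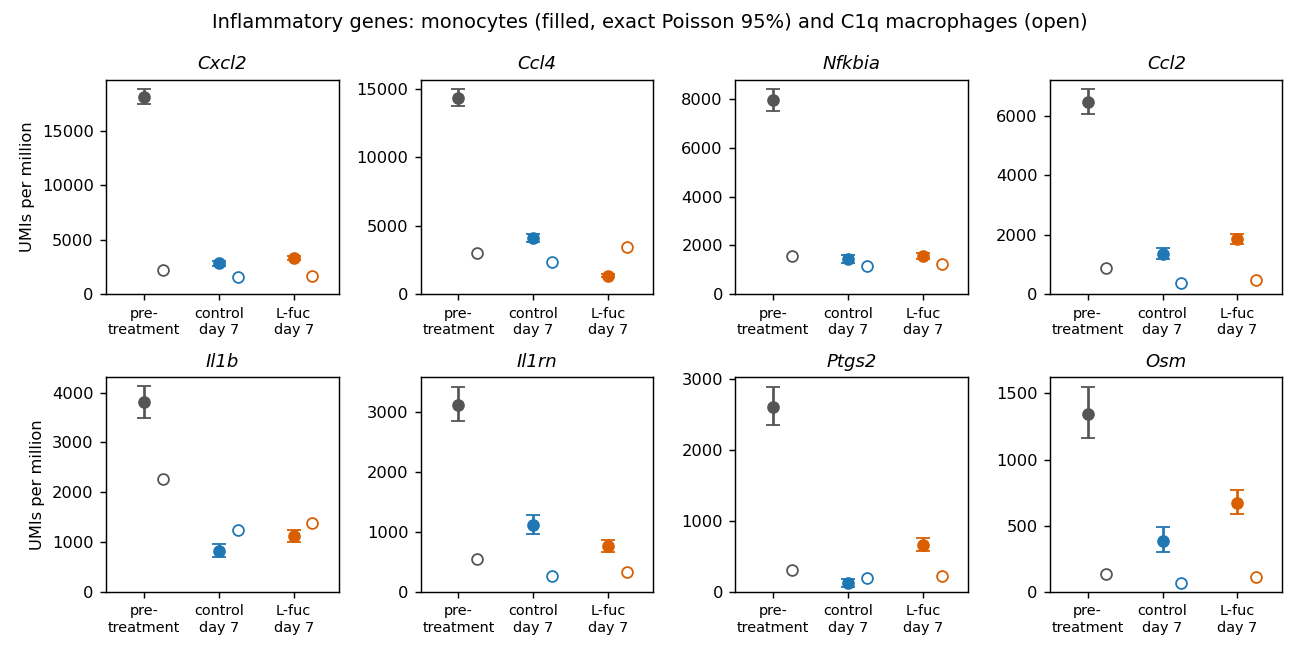
Level of 8 inflammatory genes (CPM, linear vertical axes) in the pretreatment, control day 7 and L-fuc day 7 libraries. Filled points are monocytes with Poisson 95% intervals of counting and open points are C1q macrophages; for each gene the pretreatment monocytes are highest, for example Cxcl2 at 18141 against 2818 and 3296 at day 7.

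Between L-fuc and control at day 7, which addresses the treatment itself, a smaller part of the tested genes was apart. Of 2167 genes with 30 or more UMIs, 161 were 2-fold or more higher with L-fuc (7.43%) and 101 lower (4.66%), with an all-gene median of 0.04. When every cell was weighted equally the split was 149 higher and 160 lower. In the classical monocyte list 6 of 25 were higher and 1 lower (median 0.78, macrophages 0.26, where all genes had a median of -0.20). Without members over 0.3%, 0 of 22 tested were 2-fold higher and 0 lower, and the median was 0.50. The lower gene in the full set was Ly6a (Sca-1), at -4.71, most of whose control UMIs were in the doubtful cell. In migration and adhesion 5 of 12 were higher and 0 lower, 11 were above 0, and the median was 0.88 (macrophages 0.15). Thinned to 2000 UMIs per cell these medians were 0.38 and 0.01, with fewer genes tested (589) and 25 of the 29 control cells left. The median cell had 1.59% of its UMIs in the classical list in control and 2.62% with L-fuc, and 0.155% and 0.266% in the migration list.

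Cxcr4, the receptor that holds leukocytes in marrow and draws them to Cxcl12, was at 39.6 CPM in control (Poisson 95% interval 15.9 to 81.6) and 230 with L-fuc (179 to 291), a log2 ratio of 2.37, in 4 of 29 and 24 of 40 cells. At pretreatment Cxcr4 had been at 367 CPM, so the L-fuc monocytes lay between control day 7 and pretreatment. The integrin genes Itgb2 (CD18) and Itgam were higher by 1.47 and 1.37, and by 1.09 and 0.90 without members over 0.3%. Immunosuppressive myeloid genes had 5 of 10 higher and 1 lower (median 0.73, macrophages -0.03), of which Ptgs2 and Thbs1 are also counted in other lists. Without members over 0.3% this list had 3 of 9 higher and 2 lower, with a median of 0.03 beside 0.06 over all genes, and at 10 or more UMIs its median was 0.34. The median cell had 0.175% of its UMIs in this list in control and 0.192% with L-fuc. Among them Ptgs2 was at 119 CPM (73.6 to 182) and 664 CPM (575 to 762), a ratio of 2.42, in 7 of 29 and 17 of 40 cells, and the matrix protein gene Thbs1 rested on 1 control UMI and 43 L-fuc UMIs in 8 cells. Slpi, a secreted inhibitor of leukocyte proteases, was at 45.3 CPM (19.5 to 89.2) and 1078 CPM (964 to 1201), a ratio of 4.41, in 5 of 29 and 17 of 40 cells. In macrophages the Slpi ratio was -1.34, on the opposite side, and at pretreatment the monocyte level was 999 CPM.

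Class II genes had 2 of 10 higher with L-fuc and 0 lower (median 0.59). H2-Eb1 was at 560 and 1482 CPM (1.39) and H2-Aa at 1234 and 2534 CPM (1.03, and 0.93 without members over 0.3%). The share of cells with an H2-Aa UMI went the other way, at 23 of 29 in control and 19 of 40 with L-fuc, and at 14 of 25 and 13 of 40 after thinning. The T cell background moved in the same direction, at 493 of 755 in control and 436 of 991 with L-fuc. After thinning it was at 275 of 552 and 241 of 848. A change in the monocytes themselves cannot be read from these shares. In macrophages the class II list had a median of 0.72, where all genes had a median of -0.20. The monocyte median of this list was 0.29 to 0.82 over the alternatives, and a difference between the cell types was not tested. In monocytes class II UMIs lay in few cells of either library, with 1204 of 1598 in 8 of the 29 control cells and 3336 of 4402 in 8 of the 40 L-fuc cells. The median cell had 21 of them with L-fuc and 17 in control, or 0.284% and 0.455% of its UMIs. Type I interferon genes had 6 of 17 higher and 2 lower (median 0.55, 0.43 to 0.68 over the alternatives). This too lay in few cells, since 1 L-fuc cell held 462 of the list's 1389 UMIs. The median cell had 0.259% of its UMIs in this list in both libraries, and without the 2 richest cells of each the list was at 2645 CPM in control and 2883 with L-fuc. Isg15 was at 566 and 1308 CPM (1.20), with 171 of the 398 L-fuc UMIs in 1 cell and a ratio of 0.28 without the 2 richest cells of each library, and Ifi205 at 56.6 and 158 CPM (1.37). Rsad2 went the other way, at 492 and 214 CPM (-1.20), but with 74 of 87 control UMIs in 2 cells and a ratio of -0.58 without the 2 richest of each library. Class I genes had 1 of 17 higher and 0 lower (median 0.29). Interferon gamma genes had 3 of 14 higher and 0 lower (median 0.39, from -0.05 after thinning to 1.00 with C1q at 0).

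Glycolysis and hypoxia genes were lower with L-fuc: 7 of 16 by 2-fold or more, 1 higher, and 1 above 0 (median -0.91, macrophages -0.17). Tpi1 (triosephosphate isomerase) was at 1426 CPM in control (1256 to 1614) and 444 with L-fuc (372 to 525), a log2 ratio of -1.68, beside 1040 CPM at pretreatment. Ldha (lactate dehydrogenase) was at 1692 and 684 CPM (-1.31), with 129 of the 299 control UMIs in 1 cell and a ratio of -0.85 without the 2 richest cells of each library, and Aldoa (aldolase) at 1896 and 753 CPM (-1.33). Hk2 (hexokinase), the exception, was at 28.3 and 141 CPM (2.09). The list median moved to -0.22 when C1q was held at 0 and was between -1.03 and -0.76 under the other alternatives. Tumor genes moved the same way, with a list median of -0.59 (macrophages -0.79) and 1 of 5 above 0, and 3 control cells held 1039 of the 2136 control glycolysis UMIs. The median cell had 21 glycolysis UMIs in control and 19.5 with L-fuc, or 0.525% and 0.299% of its UMIs. Without members over 0.3% the glycolysis median was -0.997, with 7 of 15 lower and 1 higher.

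Inflammatory genes had 3 of 17 higher and 3 lower (median 0.22, -0.11 to 0.31 over the alternatives), and the median cell had 0.528% of its UMIs in this list in control and 0.420% with L-fuc. Ccl4, a chemokine for T cells and monocytes, was at 4069 CPM in control (3777 to 4378) and 1341 with L-fuc (1214 to 1477), a ratio of -1.60, while the macrophage ratio was 0.53. In control 2 cells held 411 of its 719 UMIs, and without the 2 richest cells of each library Ccl4 was at 1968 and 828 CPM (-1.25). Tnf was at 787 and 339 CPM (-1.21), but at 262 and 209 CPM (-0.34) without the 2 richest cells of each library. Cxcl1 was at 249 and 26.3 CPM (-3.11), with 33 of its 44 control UMIs and all 8 L-fuc UMIs in 2 cells each. Macrophage genes were split, with 2 of 15 higher and 3 lower (median -0.06). Apart from Slpi, the highest ratios belonged to the globin genes Hbb-bs (4.69, at 79.2 and 2195 CPM) and Hba-a1 (4.05). In the L-fuc library 2 cells held 567 of the 668 Hbb-bs UMIs, and without them the level was 354 CPM. Without members over 0.3% the ratio was 1.79 for Hbb-bs and 0.55 for Hba-a1. Macrophages had Hbb-bs at 257 and 2404 CPM, so red cell transcripts moved with the treatment library in both cell types, and its part in the other differences was not tested. The lowest ratios belonged to Col1a1 (-7.68) and other fibroblast genes, nearly all from the doubtful control cell; without it 117 genes were higher and 62 lower, and without members over 0.3% 95 of 1398 were higher and 52 lower.

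**Figure D5:**
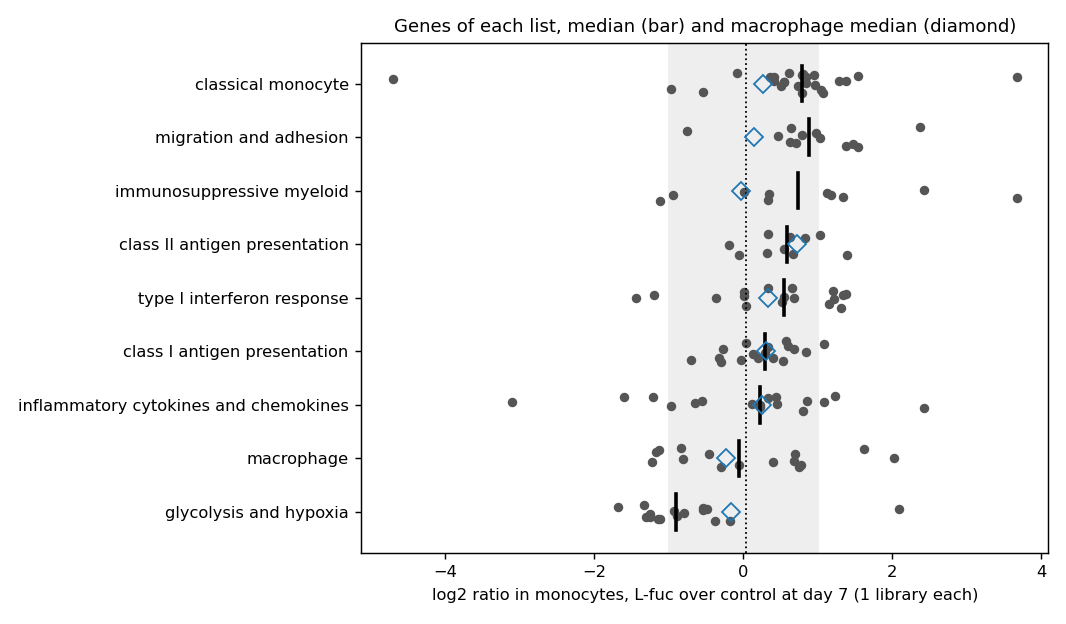
Log2 ratio of L-fuc to control at day 7 in monocytes (horizontal axis) for the genes of 9 lists (vertical axis), each point a gene. Bars are list medians and diamonds are the medians of the same lists in C1q macrophages. The grey band spans ratios within 2-fold and the dotted line is the all-gene median (0.04). Migration (0.88) and classical monocyte (0.78) medians lie above it and glycolysis (-0.91) below it.

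At day 21 each library held 2 monocytes, too few for a comparison of genes. The control cells had 5806 and 15565 UMIs. The deeper one held 587 UMIs of Lyz2, 47 of Ly6c2 and 402 of Cxcl2, and the other 13, 12 and 84. One of the L-fuc cells was the neutrophil-gene cell of 4980 UMIs. The other held 189 UMIs of Il1b, 115 of Cxcl2 and 42 of Apoe. Ccr2 summed to 13 UMIs over the control cells and 2 over the L-fuc cells, and Trem2 was at 0 in all of them.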

How the data were processed

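Per the file headers the deposited matrices hold raw UMI counts per gene and barcode, written by Cell Ranger 7.1.0, while the submitters' processing notes name Cell Ranger 3.0, Seurat 4.0 and mm10, and the reason for the difference is not given in the sources used here. The data used here hold 1 gene expression library per condition, without replicates, and the mice of a condition were pooled by the authors before sequencing. The paper's methods speak of integrating samples of individual mice, which cannot be told apart in these libraries. Everything else was computed here from the deposited counts, and receptor contigs were used for 1 check.

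The members, the 25 gene lists (16 of functions, 9 of other cell types) and the tests were chosen with earlier results of these data known. Doublets were scored with Scrublet in scanpy 1.11.5, intervals came from scipy 1.17.1, tables from pandas 2.3.3 and numpy 2.4.6, and figures from matplotlib 3.10.9, all under Python 3.11.15. Between conditions, UMI sums were scaled to 1000000, with 1 UMI added to each sum, genes under 30 UMIs left out and at least 10 monocytes per library required. Between cell classes, sums per library were fitted with edgeR 4.0.16 in R 4.3.3, with TMM scaling, edgeR's filter on low counts and library as a block. DESeq2 1.42.0 was an alternative. The fitting steps were tested on simulated data. Named genes were the rule genes, list members, the 12 genes of smallest p in each direction per edgeR comparison, the 8 highest and 8 lowest ratios per comparison of conditions and the 20 most abundant genes. Some list members are not reported here by name.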

Additional observations from a re-analysis of the deposited data

How the results depend on the processing

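The L-fuc to control ratio of monocyte shares at day 7 was 2.73 and stayed between 2.15 and 4.50 under 11 alternatives of denominator, cell limits, depth and doubtful members; with C1q held at 0 it was 6.38, and the cause was not tested. At day 21 all 12 alternatives kept the ratio within its counting error, but without the doubtful member it was 0.665 in place of 1.33. The 262 genes 2-fold apart between L-fuc and control at day 7 became 166 with a pseudocount of 5 UMIs (71 higher, 95 lower), 1011 at 10 or more UMIs, 107 at 60 or more, 52 after thinning to 2000 UMIs (589 genes left), 167 with C1q at 0 (118 higher) and 147 without members over 0.3% tumor, fibroblast, neutrophil and red cell UMIs. The 507 genes apart between control day 7 and pretreatment became 262 at 60 or more UMIs, 133 after thinning and 277 without members over 0.3%, with fewer genes entering each. Day 21 genes were not compared, since each library held 2 monocytes of the 10 required, so those alternatives were not run either.

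For monocytes and C1q macrophages, edgeR with the library block called 698 genes. DESeq2 called 376, no replicate block (library left out of the model) 149, and thinning 356 of 4196 tested, while leaving out a library gave 229 (without L-fuc day 7) to 652. For monocytes and Cd209a cells the 217 calls became 18 with DESeq2 and 0 without the replicate block (307 at an unadjusted p below 0.05), 0 after thinning (77) and 0 without members over 1% tumor, fibroblast or neutrophil UMIs (368), and 117 without members over 0.3%. Leaving out a library there left no residual degrees of freedom and was not run. The alternatives without members over either limit, with UMIs in 5 or more members, and without the 2 richest cells for a gene, were added after the data were seen. The cells share a library and not a replicate number, so the block stands for the library. The limits are 1 pooled library per condition, 92 cells in all, unequal depth (median 4439 UMIs at control day 7, 7499 at pretreatment) and C1q, tumor and red cell UMIs that differed between libraries.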

Other observations

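The most abundant transcript of the pooled monocytes was Gm42418, at 49781 CPM, which overlaps ribosomal RNA and is uncertain for that reason. Among the other abundant genes were the iron-storage gene Fth1 (14180 CPM), the actin gene Actb (10334 CPM), the actin-binding peptide gene Tmsb4x (9627 CPM), Cxcl2 (7177 CPM), Cd74 (5755 CPM), Ccl4 (5185 CPM) and the interferon-induced membrane protein gene Ifitm3 (4286 CPM). Of the Cxcl2 UMIs, 2669 came from the 19 pretreatment cells.

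Some genes outside the gene lists were among the clearest in monocytes over C1q macrophages. Slfn4, a myeloid Schlafen gene, was at 54.4 CPM at pretreatment, 96.2 at control day 7 and 154 at L-fuc day 7, against 2.99, 4.59 and 2.48 CPM in macrophages (log2 difference 4.85 ± 0.44; edgeR adjusted p = 1.9e-25, up to 0.0025). Ltb4r1, the receptor for leukotriene B4, was higher by 4.24 ± 0.40 (edgeR adjusted p = 6.3e-23, up to 0.049). F10, coagulation factor X, was higher by 3.50 ± 0.33 (edgeR adjusted p = 4.6e-24, up to 0.063). Inhba, a subunit of activin, was higher by 5.75 ± 0.40, with 1128 CPM at pretreatment, 73.6 at control day 7 and 115 at L-fuc day 7 in monocytes and at most 8.36 CPM in macrophages.

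Transcripts of the fucose pathway were sparse in the monocytes. Fuca1, the lysosomal fucosidase, was at 54.4, 107 and 95.3 CPM in the same 3 libraries. Fut8, which adds core fucose, had 0, 4 and 3 UMIs, and Gmds, the first enzyme of GDP-fucose synthesis from mannose, had 2, 6 and 3 UMIs. A difference with L-fuc in these genes was not detectable at this depth.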
